A study of Rattus norvegicus with 16 samples.

Results

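The genes described here are adipocyte genes measured in aorta and kidney RNA, chosen by identifier as a reading of how much fat tissue the aorta pieces held: Adipoq (ENSRNOG00000001821), Fabp4 (ENSRNOG00000010805) and Ucp1 (ENSRNOG00000003580). The choice named 4 identifiers. The row of the other one, Lep (ENSRNOG00000005597), is not analysed here, which leaves 3 of the 23918 genes listed in each of the 2 count tables. The count tables do not pair identifiers with gene names, so the 3 names are those given with the choice and were not checked against an annotation.

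RNA-seq measured polyA-selected RNA from wild type male Sprague-Dawley rats aged 1 year. The hyperoxia group had breathed 85% oxygen from postnatal day 1 to day 14 and had then lived in room air, and the RA group had stayed in normoxia throughout. For each tissue there were 4 RA and 4 hyperoxia libraries, 16 in all. Aorta RNA came from the arch and the thoracic part of the vessel, kept frozen, and the sources used here do not say whether the surrounding fat was taken off. Values are given as CPM, counts divided by library size and scaled within each tissue by TMM normalization, which corrects for differences in RNA composition between libraries.

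The thoracic aorta lies in a sleeve of perivascular fat, which in rodents resembles brown fat. Brown adipocytes burn fatty acids for heat through uncoupling protein 1 in their mitochondria, whereas white adipocytes mainly store triglyceride. The sleeve adjoins the vessel wall directly, so a piece of aorta can carry more or less of it. Adipoq encodes adiponectin, a hormone that brown and white adipocytes secrete. Fabp4 encodes the fatty acid carrier of adipocytes and is also found in capillary endothelium and macrophages. Ucp1 encodes uncoupling protein 1 and marks brown and beige adipocytes.

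Aorta libraries of the RA group held 33611558 to 47021630 counts and those of the hyperoxia group 68643331 to 83929128, so every hyperoxia aorta was deeper than every RA aorta, and depth and exposure cannot be told apart there. Kidney libraries held 25031947 to 26521895 counts. Nothing in the labels states that the libraries of a group came from separate litters or days, so p-values measure the spread between these samples. Smooth muscle, endothelial, striated muscle and lymphoid markers were not analysed here, because no table used here pairs their names with identifiers. The aorta label was therefore not checked against its own markers.

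The promoters of Adipoq and Ucp1, from 250 bases before to 50 bases after the start of the gene, are shown as background. Both genes were lowest in the same 3 aortas, as described further on, and whether their promoters have a part in this was not tested. The sequences are those of RefSeq on build GRCr8, at chr11:91240120-91240419 on the minus strand for Adipoq and chr19:41721372-41721671 on the minus strand for Ucp1. The count tables were made on another build (rn6.0), and nothing was measured at these positions. Fabp4 has no entry in the RefSeq promoter table used. Capitals mark the letters TATAAA and CCAAT found on either strand.
Adipoq: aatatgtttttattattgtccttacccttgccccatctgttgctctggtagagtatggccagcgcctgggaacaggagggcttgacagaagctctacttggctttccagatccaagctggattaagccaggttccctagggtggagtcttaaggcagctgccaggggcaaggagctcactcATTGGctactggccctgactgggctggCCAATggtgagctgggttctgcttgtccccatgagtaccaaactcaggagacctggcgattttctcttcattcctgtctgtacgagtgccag
Ucp1: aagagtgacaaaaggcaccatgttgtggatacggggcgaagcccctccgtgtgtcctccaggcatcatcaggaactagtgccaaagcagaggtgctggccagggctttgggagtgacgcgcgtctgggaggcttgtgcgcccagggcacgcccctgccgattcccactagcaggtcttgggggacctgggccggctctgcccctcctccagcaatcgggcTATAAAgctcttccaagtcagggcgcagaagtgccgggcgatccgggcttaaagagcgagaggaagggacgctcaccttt

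In the Ucp1 promoter TATAAA began 30 bases before the start of the gene, and 14.2% of the 33469 RefSeq rat promoters of this length held these letters. The Adipoq promoter held CCAAT on the minus strand 69 bases and on the plus strand 42 bases before the start, as 37.5% of all promoters held it at least once. The letters AGGNCA repeated after 1 base, a direct repeat of the kind that PPAR and RXR bind, and TGACGTCA, the cAMP response element, were searched on both strands and were in neither window. All promoters held them in 0.415% and 1.83% of cases. No searched motif overlapped another in these windows.

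In the aorta, all 3 genes varied many-fold between rats of the same exposure group, and neonatal hyperoxia did not separate the groups. Adipoq stood at 154, 125, 27.4 and 11.0 CPM in RA replicates 1 to 4. In hyperoxia replicates 1 to 4 it stood at 206, 24.0, 46.5 and 139 CPM. High and low aortas were found in both groups, and the groups overlapped. RA aortas averaged 79.5 ± 71.0 CPM (SD, n = 4) and hyperoxia aortas 104 ± 84.4 CPM (SD, n = 4).

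Fabp4 stood at 842, 1130, 162 and 97.1 CPM in the RA aortas. In the hyperoxia aortas it stood at 690, 134, 297 and 734 CPM. Again RA replicates 3 and 4 and hyperoxia replicate 2 were the lowest of the 8. RA aortas averaged 558 ± 509 CPM (SD, n = 4) and hyperoxia aortas 464 ± 295 CPM (SD, n = 4).

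Ucp1 spread the most of the 3. It stood at 222, 301, 5.20 and 4.88 CPM in the RA aortas. In the hyperoxia aortas it stood at 331, 6.60, 83.0 and 388 CPM. The 8 aortas fell into 5 with at least 83.0 CPM and 3 with at most 6.60 CPM, and those 3 were the same RA replicates 3 and 4 and hyperoxia replicate 2. The gap between them took up 57.8% of the whole range on the log2 scale. Ucp1 was still well above the counting floor in the 3 low aortas, at 221, 187 and 639 counts. RA aortas averaged 133 ± 151 CPM (SD, n = 4) and hyperoxia aortas 202 ± 186 CPM (SD, n = 4).

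**Figure D1:**
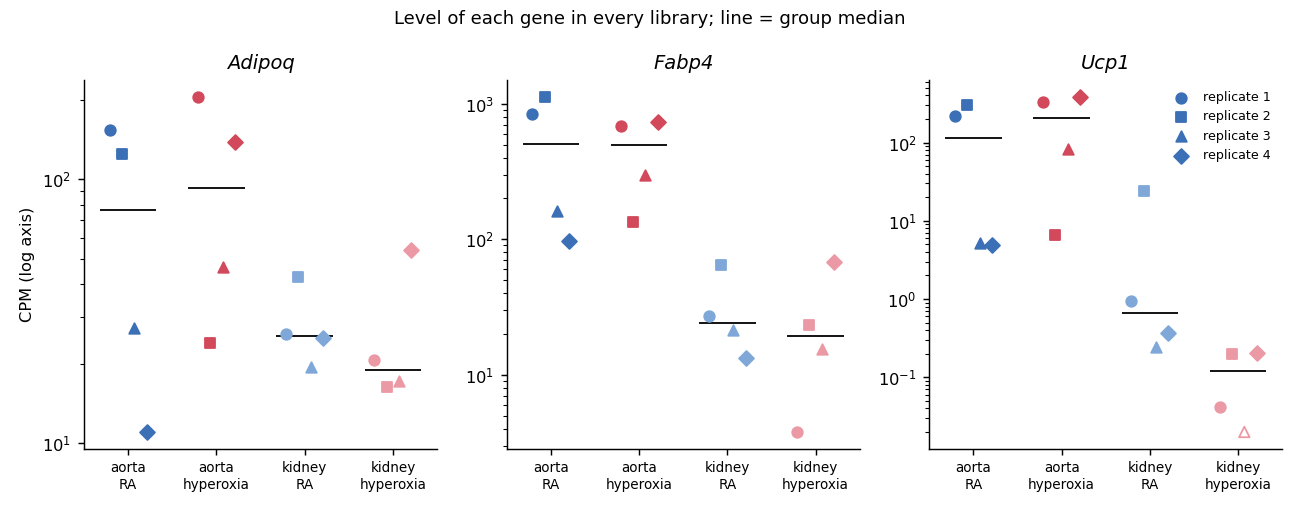
CPM (log axis) of Adipoq, Fabp4 and Ucp1 in every library, by tissue and exposure, with one marker shape per replicate and a line at the group median; the open symbol is a library with 0 counts, drawn at the bottom. RA aortas 3 and 4 and hyperoxia aorta 2 are the lowest aortas for each gene, and for Ucp1 they lie between 4.88 and 6.60 CPM while the other aortas lie between 83.0 and 388 CPM.

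The low aortas included shallow and deep libraries. RA replicates 3 and 4 held 38207075 and 33611558 counts, and hyperoxia replicate 2 held 83903842. These 3 libraries had the 3 highest TMM factors of the aortas, 1.11, 1.14 and 1.15, against 0.836 to 1.00 for the other 5. With library totals in place of TMM, the log2 fold changes of hyperoxia over RA were 0.52 for Adipoq, −0.11 for Fabp4 and 0.79 for Ucp1, none of them called. As the RNA is from whole tissue pieces, fewer adipocytes and less of these RNAs per adipocyte cannot be told apart.

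Within a group, the highest aorta exceeded the lowest by 14.0-fold in RA and 8.59-fold in hyperoxia for Adipoq. For Fabp4 the ratio was 11.6-fold in RA and 5.47-fold in hyperoxia. For Ucp1 it was 61.7-fold in RA and 58.8-fold in hyperoxia. The coefficient of variation of CPM was 89.3% in RA and 81.3% in hyperoxia for Adipoq, 91.3% and 63.5% for Fabp4, and 114% and 91.9% for Ucp1.

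Set against all 15086 genes tested in the aorta, these were among the most variable. The SD of log2 CPM around the exposure group means was 1.63 for Adipoq, 1.48 for Fabp4 and 3.01 for Ucp1, where the median gene had 0.33. Only 276 genes had a larger SD than Adipoq, 368 a larger one than Fabp4 and 27 a larger one than Ucp1. Because genes with few counts also vary more, the spread was set against that of genes of the same abundance. The biological coefficient of variation estimated by edgeR was 0.792 for Adipoq, with a trend value at its abundance of 0.241. It was 0.737 against 0.270 for Fabp4 and 1.19 against 0.255 for Ucp1. The split by exposure accounted for 4.47% of the variance of log2 CPM between aortas for Adipoq, 0.179% for Fabp4 and 6.21% for Ucp1. Any split of the aortas into groups accounts for some share, so these values alone show no effect of exposure.

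**Figure D2:**
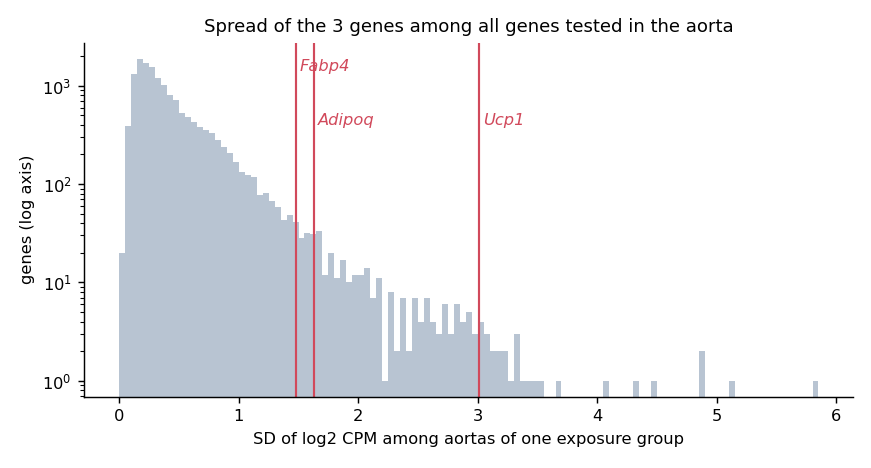
Number of genes (log axis) by the SD of log2 CPM among aortas of one exposure group, over all 15086 genes tested in the aorta. The red lines mark Fabp4 at 1.48, Adipoq at 1.63 and Ucp1 at 3.01, all in the far tail of a distribution with its median at 0.33.

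None of the 3 genes passed the thresholds for an effect of hyperoxia in the aorta, an adjusted p (FDR) below 0.1 with a higher group mean more than 25% above the lower one, which 0.0199% of all genes tested passed with edgeR's quasi-likelihood test. DESeq2 called 1.13% of the genes and none of these 3. The log2 fold change of hyperoxia over RA was 0.38 for Adipoq (standard error 0.85, 95% interval −1.54 to 2.31, edgeR FDR 0.907). For Fabp4 it was −0.27 (standard error 0.79, 95% interval −2.04 to 1.50, edgeR FDR 0.932). For Ucp1 it was 0.60 (standard error 1.37, 95% interval −2.49 to 3.70, edgeR FDR 0.910). These intervals reach from several-fold lower to several-fold higher, so with 4 aortas a group neither a rise nor a fall of such size was detectable. The median log2 fold change over all genes tested was −0.02.

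The CPM of the groups overlapped for all 3 genes in the aorta, and did not overlap for 4.59% of the genes tested. Two-sided exact permutation tests of the mean CPM over the 70 splits gave p = 0.629 for Adipoq, 0.771 for Fabp4 and 0.514 for Ucp1. Leaving out 1 aorta turned the direction for Adipoq (log2 fold change −0.19 without hyperoxia replicate 1) and for Fabp4 (0.01 without RA replicate 1, 0.34 without RA replicate 2 and 0.04 without hyperoxia replicate 2). Ucp1 kept its direction, between 0.10 and 1.39. With limma voom, Fabp4 also turned, to 0.11.

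All 3 genes were lowest in the same 3 aortas, and Adipoq and Fabp4 went together over the 8, which the choice of genes did not use. The highest aorta differed: hyperoxia replicate 1 for Adipoq, RA replicate 2 for Fabp4 and hyperoxia replicate 4 for Ucp1. For Adipoq and Fabp4 the largest gap lay between 4 low and 4 high aortas. It took up 33.9% and 34.3% of the range on the log2 scale. Over the 8 aortas, log2 CPM of Adipoq and Fabp4 had a Pearson's r of 0.959 (exact permutation p = 0.00107, adjusted over the 3 pairs of genes 0.00182) and a Spearman's rho of 0.786 (exact permutation p = 0.0279, adjusted 0.0279). Without RA replicate 4 and hyperoxia replicate 2, the aortas farthest from the median Adipoq level, r was 0.913 over 6 aortas (exact permutation p = 0.0319) and rho was 0.486. With the exposure group means removed, r was 0.973 (exact permutation p = 0.000471). The aortas form separate clusters for Ucp1, 3 low and 5 high, so its correlations are not given. They entered the adjustment over the 3 pairs.

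**Figure D3:**
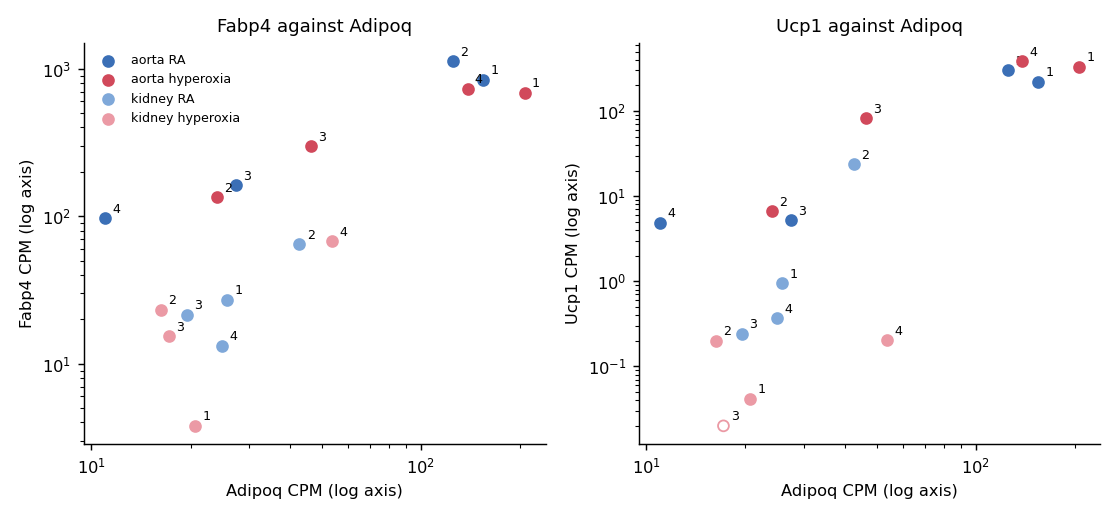
CPM (log axes) of Fabp4 on the left and Ucp1 on the right against Adipoq, with one point per library, coloured by tissue and exposure and numbered by replicate; the open point is at 0 counts. Aortas run along one band from RA replicate 4 to hyperoxia replicate 1, and kidneys lie below it for Fabp4. For Ucp1, RA kidney 2 at 23.8 CPM lies among the aortas and hyperoxia kidney 4 at 0.203 CPM far below them.

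The ratio of Fabp4 to Adipoq counts within a library stayed within 2.70-fold over the 8 aortas, from 3.34 to 9.02. It was 5.45, 9.02, 5.90 and 8.83 in the RA aortas and 3.34, 5.59, 6.40 and 5.30 in the hyperoxia aortas. The groups overlapped (two-sided exact permutation test on log2 ratios, p = 0.171, adjusted over 7 such tests 0.35).

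The ratio of Ucp1 to Adipoq was far less even and spanned 14.8-fold. It was 1.44, 2.40, 0.190 and 0.443 in the RA aortas and 1.60, 0.275, 1.79 and 2.80 in the hyperoxia aortas. The 3 aortas set apart by their low Ucp1 had less Ucp1 for each Adipoq count than the other 5, which that choice favours. Hyperoxia replicate 3, next lowest in Adipoq at 46.5 CPM, stood at 1.79, above RA replicate 1 and hyperoxia replicate 1. Exposure did not separate this ratio (two-sided exact permutation test on log2 ratios, p = 0.543, adjusted 0.633). These ratio tests were chosen after the levels were seen.

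**Figure D4:**
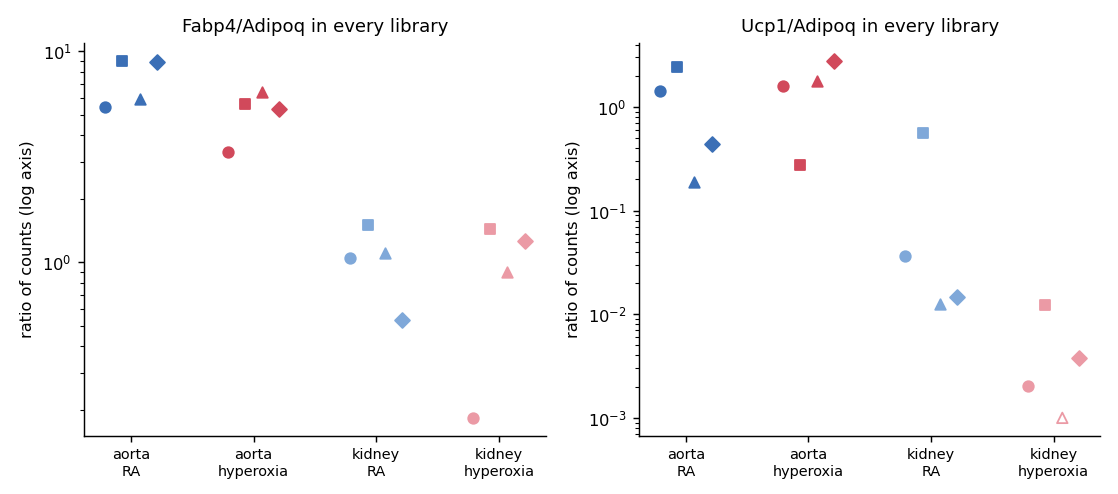
Ratio of counts within a library (log axis) of Fabp4 to Adipoq on the left and Ucp1 to Adipoq on the right, by tissue and exposure, with one marker shape per replicate; the open symbol is a ratio of 0 drawn at the bottom. Fabp4 to Adipoq lies between 3.34 and 9.02 in all aortas and between 0.183 and 1.51 in all kidneys, and Ucp1 to Adipoq reaches 0.556 in RA kidney 2.

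In the kidney, Adipoq and Fabp4 were measured in every library, and Ucp1 was below 1 CPM in all kidneys but 1. Adipoq stood at 25.9, 42.8, 19.5 and 25.0 CPM in RA replicates 1 to 4 and at 20.7, 16.2, 17.1 and 53.8 CPM in hyperoxia replicates 1 to 4. The groups overlapped, and hyperoxia replicate 4 was the highest of the 8. Its SD of log2 CPM around the group means was 0.66, larger than that of all but 1217 of the 15069 genes tested in the kidney.

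Fabp4 stood at 27.1, 64.5, 21.5 and 13.3 CPM in the RA kidneys and at 3.79, 23.2, 15.4 and 67.8 CPM in the hyperoxia kidneys. The same 2 kidneys, RA replicate 2 and hyperoxia replicate 4, were the highest for both genes. The SD of log2 CPM of Fabp4 around the group means was 1.38, exceeded by 195 genes, where the median gene had 0.21.

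Ucp1 told these 2 kidneys apart. RA replicate 2 held 614 counts of Ucp1, or 23.8 CPM. Hyperoxia replicate 4, with as much Adipoq and Fabp4, held 5 counts, or 0.203 CPM. The other RA kidneys held 25, 6 and 10 counts (0.949, 0.242 and 0.366 CPM), and the other hyperoxia kidneys 1, 6 and 0. A count of 0 allows up to 3 counts, or 0.125 CPM, for counting error only. With RA libraries of both tissues scaled together, RA kidney 2 stood at 22.6 CPM of Ucp1, above RA aortas 3 and 4 at 5.54 and 5.25 CPM.

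Adipoq and Fabp4 did not pass the thresholds in the kidney, where edgeR called 0% of the genes tested, with 747 at an unadjusted p under 0.05 and 0.153% called by DESeq2. The log2 fold change of hyperoxia over RA was −0.07 for Adipoq (standard error 0.42, 95% interval −1.02 to 0.88, edgeR FDR 0.995). For Fabp4 it was −0.20 (standard error 0.77, 95% interval −1.95 to 1.56, edgeR FDR 0.988). Both directions turned without RA kidney 2, to 0.21 and 0.43, and without hyperoxia kidney 1, to 0.039 and 0.17. Adipoq also turned without hyperoxia kidney 2 or 3, to 0.12 and 0.096. Without hyperoxia kidney 4 the values were −0.65 and −1.15, with edgeR FDRs of 0.613 and 0.658.

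Ucp1 was removed by the filter on low counts in the kidney. Every RA kidney lay above every hyperoxia kidney (exact permutation test of the mean CPM, two-sided, p = 0.0286, which is the lowest that 4 libraries against 4 allow). This was 1 of 6 such tests and is not adjusted. Over all genes with no filter, edgeR gave Ucp1 a log2 fold change of −5.72 with an FDR of 0.873. Groups did not overlap for 3.07% of the genes tested in the kidney. RA kidneys averaged 6.34 ± 11.6 CPM (SD, n = 4) and hyperoxia kidneys 0.111 ± 0.106 CPM (SD, n = 4). The size rests on RA replicate 2: without it the difference in means was −0.41 CPM, in place of −6.23 CPM. Without any one hyperoxia kidney it was between −6.26 and −6.19 CPM, and the groups still did not overlap. The exact permutation p was then 0.457, as every split that puts RA replicate 2 in the smaller group gives a larger difference of means. Without any one RA kidney that p stayed at 0.0286, the lowest possible there too. The lowest RA kidney and the highest hyperoxia kidney by count both held 6 counts.

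The difference between the tissues was tested in RA animals, in a fit that joined both tables and scaled the 8 libraries together. Adipoq and Fabp4 were higher in the aorta at the thresholds, as were 34.3% of the genes tested. Of all genes, 69.3% were called in either direction (69.9% by DESeq2, which also called these genes). Ucp1 was called by edgeR and DESeq2 too, but it entered the fit only through the aortas, where it is high. Fabp4 was higher by 4.27 on the log2 scale (standard error 0.88, edgeR FDR 0.00222), and its RA aortas (105 to 1163 CPM in this scaling) all lay above the RA kidneys (12.6 to 61.3 CPM). The groups did not overlap for 63.7% of all genes tested. With library totals in place of TMM, the median over all genes shifted to −0.18 on the log2 scale and all 3 calls held. Tissue and the sequencing depth of each tissue cannot be told apart.

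Adipoq was higher in the aorta by 1.63 (standard error 0.72, edgeR FDR 0.0718). The groups overlapped, with RA aorta 4 at 11.8 CPM below all RA kidneys, which held 18.5 to 40.6 CPM. The call was lost with limma voom (FDR 0.293) and without RA aorta 1 or 2 or RA kidney 1, 3 or 4 (edgeR FDR 0.214, 0.152, 0.137, 0.148 and 0.140). Ucp1 was higher by 4.52 (standard error 1.80, edgeR FDR 0.0507). It passed the filter on low counts here through the aortas, and it was not tested when at least 10 counts were required in every library. That call was lost with limma voom (FDR 0.202) and without RA kidney 1 or 4 (edgeR FDR 0.110 and 0.104). Without RA kidney 2 the difference rose to 8.10 (edgeR FDR 0.00771).

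The ratio of Fabp4 to Adipoq was 0.183 to 1.51 in the kidneys and 3.34 to 9.02 in the aortas, with no overlap over the 16 libraries. In RA animals it was 7.25-fold higher in the aorta (exact permutation test on log2 ratios, two-sided, p = 0.0286, the lowest possible, adjusted over 7 tests 0.2). A single ratio at the lowest possible exact permutation p adjusts to 0.2 over 7 tests. This adjustment could therefore not call it, and no conclusion is drawn from that. The ratio of Ucp1 to Fabp4 overlapped, at 0.0322 to 0.266 in RA aortas and 0.0113 to 0.369 in RA kidneys (two-sided exact permutation test, p = 0.371, adjusted 0.52). The ratio of Ucp1 to Adipoq overlapped between RA aortas and RA kidneys (two-sided exact permutation test, p = 0.0857, adjusted 0.3). RA kidney 2 stood at 0.556 and the other RA kidneys between 0.0124 and 0.0367.

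Whether the exposure effect differed between the tissues was tested over all 16 libraries, where edgeR called 0% of the genes tested, with 1277 at an unadjusted p under 0.05 and 0.53% called by DESeq2. The difference of the log2 fold changes, aorta minus kidney, was 0.51 for Adipoq (standard error 1.04, edgeR FDR 0.925) and −0.01 for Fabp4 (standard error 1.19, edgeR FDR 1.00), whose direction turned in 8 of the 16 fits without one library. For Ucp1, which passed the filter on low counts here through the aortas, it was 6.40 (standard error 2.69, edgeR FDR 0.606). Without RA kidney 2 it was 2.80 (edgeR FDR 0.873).

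The share of the difference between aortas over all genes that lay along each of the 3 genes was tested by permutation. The adjusted p was under 0.05 for Fabp4 only, and the shares were not tested against one another. Taking the 15083 other genes tested, 24.5% of the variance of log2 CPM between the 8 aortas lay along Adipoq (exact permutation p = 0.0315 over 40320 orderings, adjusted over 4 tests 0.063). Along Fabp4 it was 28.8% (exact permutation p = 0.0027, adjusted 0.0108), and along Ucp1 22.8% (exact permutation p = 0.0599, adjusted 0.0799). Exposure took 16.7% (exact permutation p = 0.229, adjusted 0.229). Any ordering of the 8 aortas takes some share, so each share is to be read with its permutation p. These shares overlap, since the 3 genes move together, and the comparison was chosen after the levels were seen. Of the 3 genes, only Adipoq was looked at without each aorta in turn. Without one aorta the share along Adipoq ranged from 21.2% to 30.3%, and its exact permutation p rose above 0.05 without RA replicates 1, 3 or 4 or hyperoxia replicates 2 or 3, to between 0.0591 and 0.146.

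The relation of Adipoq to the first principal components of the aortas depended on the setting. Its r with component 1, which held 36.7% of the variance, was 0.656 in size (exact permutation p = 0.0678, adjusted over 4 components 0.194; rho 0.762, exact permutation p = 0.0368, adjusted 0.0735). With component 2, which held 17.1%, it was 0.642 (exact permutation p = 0.0971, adjusted 0.194; rho 0.762, exact permutation p = 0.0368, adjusted 0.0735). Without the 2 aortas farthest from the median, these were 0.459 and 0.56. For component 1, r was 0.867 without RA replicate 2 (adjusted exact permutation p = 0.0429) and 0.855 with the 500 most variable genes (adjusted exact permutation p = 0.0367). Component 3 was the one on which exposure separated the aortas (exact permutation p = 0.0286, the lowest possible, not adjusted over the 4 components). With component 3, r of Adipoq was 0.286 in size (exact permutation p = 0.492, adjusted 0.631, and rho 0.238, exact permutation p = 0.582, adjusted 0.776). For component 4 it was 0.213 (exact permutation p = 0.631, adjusted 0.631; rho 0.0714, exact permutation p = 0.882, adjusted 0.882).

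When the log2 CPM of Adipoq was added to the aorta comparison as a covariate, 850 of the other 15085 genes (5.63%) were called for it at an FDR under 0.1 with edgeR, 611 rising (4.05%) and 239 falling with Adipoq. Without one aorta the number was 918 when hyperoxia replicate 2 was left out and 230 to 564 for each of the others. Fabp4 rose by 0.89 on the log2 scale for each log2 unit of Adipoq (standard error 0.09, 95% interval 0.69 to 1.10, edgeR FDR 0.00255). Ucp1 rose by 1.69 (standard error 0.25, 95% interval 1.13 to 2.25, edgeR FDR 0.011). The Ucp1 slope runs across the 3 low and 5 high aortas described above and was not fitted within either set. With Adipoq as a covariate, hyperoxia over RA was −0.45 for Fabp4 and 0.33 for Ucp1 on the log2 scale (edgeR FDR 0.346 and 0.807).

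The number of genes called for exposure moved with the covariate. Without it 3 genes passed the thresholds, and 15 did without RA replicate 4 and 6 without hyperoxia replicate 4. With Adipoq as a covariate 591 passed, 206 higher and 385 lower, and the 3 were among them. With Fabp4 in its place 159 passed, and with Ucp1 only 2. The count with Adipoq fell to 8 without RA replicate 2 and to 3 without RA replicate 3 or hyperoxia replicate 3, and lay between 122 and 466 without each of the others. So the number called rests on single aortas and on which fat gene stands for the covariate, and no gene from these lists is named.

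**Figure D5:**
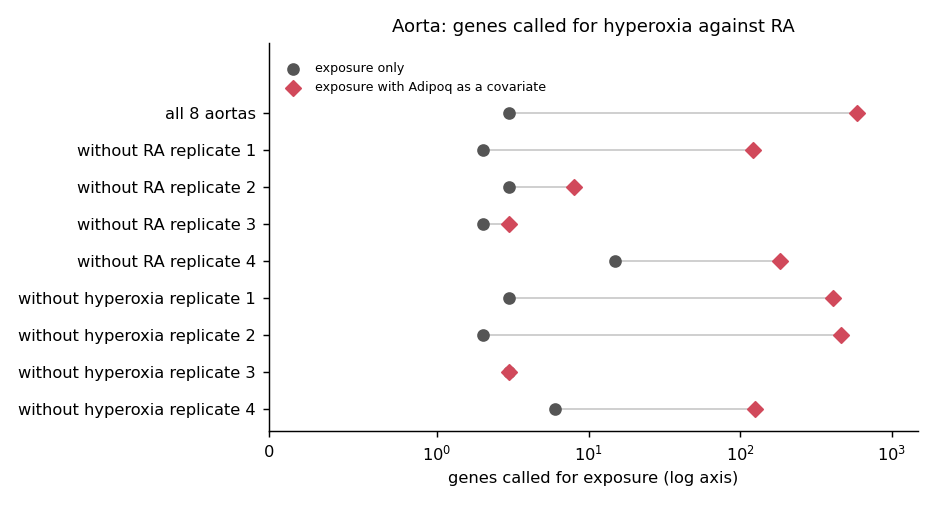
Number of genes called for hyperoxia against RA in the aorta (log axis above 1) with exposure alone (grey circles) and with Adipoq as a covariate (red diamonds), for all 8 aortas and without each in turn. The count with the covariate is 591 for all 8 aortas and falls to 3 without RA replicate 3 or hyperoxia replicate 3, where the count with exposure alone is 2 and 3; symbols coincide in the last case.

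Genes alike to the 3 were sought by Pearson's r of log2 CPM over the 8 aortas with the exposure group means removed, as a description that rests on 8 libraries sharing depth and scaling. Of 15085 genes, 512 (3.39%) had an r over 0.9 with Adipoq and 418 (2.77%) with Fabp4. Fabp4 ranked 76th in likeness to Adipoq, and Adipoq ranked 51st in likeness to Fabp4.

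The gene most like Adipoq was ENSRNOG00000016558 (r = 0.994), at 8.46, 7.77, 2.10 and 1.07 CPM in the RA aortas and 10.9, 1.84, 2.72 and 9.38 CPM in the hyperoxia aortas. It was plentiful in the kidney too, with 2413 to 5065 counts. The gene most like Ucp1, by a measure that the split into 3 low and 5 high aortas enters, was ENSRNOG00000050625, at 8.08, 8.05, 0.330 and 0.209 CPM in the RA aortas and 8.46, 0.155, 1.75 and 7.06 CPM in the hyperoxia aortas. It held only 1 to 26 counts in the kidneys. A second identifier had the same counts in every aorta, so reads of the pair cannot be told apart. The gene most like Fabp4 reached no more than 0.881 CPM in any aorta.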

How the data were processed

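RNA-seq libraries of aorta and kidney (4 RA and 4 hyperoxia each) were grouped by their labels. Per the paper's methods, the authors assigned paired-end reads to rat genome build rn6.0 with kallisto and summed them to genes with tximport. The deposited values are estimated counts (expected counts) by Ensembl identifier, without normalization. Annotation release and tool versions are not given in the sources used here. Estimated counts were rounded. The authors left out 1 hyperoxia kidney that the sources do not name, and all 4 were used here.

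Genes were filtered with filterByExpr and scaled by TMM, and groups were compared with the quasi-likelihood test of edgeR 4.0.16 in R 4.3.3, with Benjamini-Hochberg adjustment over all genes tested. Log2 CPM used a prior count of 2. Standard errors were derived from the F statistics. Permutation tests were exact and two-sided (Python 3.11.15), except for shares of variance, where larger shares counted. DESeq2 1.42.0, limma 3.58.1 (voom), other scalings and filters, thinned libraries and leaving out each library were alternatives. Fits were tested on simulated data with a spread set lower than that of these 3 genes. No pass mark was set there for exposure beside a covariate.

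The genes, lists and tests were chosen with earlier results of these data known. Lists of other adipocyte genes and cell type markers were void, since 0 of 23918 identifiers occur in the table of names (assembly GRCr8). By the rule for named genes, the 3 genes most like each member were sought and at most 2 identifiers given. Precision is set by 4 animals a group, and counting intervals and floors cover counting error only.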

Additional observations from a re-analysis of the deposited data

Results flagged for a closer look

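A library far from the others of its group was looked for in 12 groups of 4 libraries (3 genes in 4 groups), where chance gives about 0.6. It was found in 2, both in the kidney and both for a high value. Ucp1 reached 23.8 CPM in RA kidney replicate 2, where the rest of that group lay between 0.242 and 0.949 CPM. Adipoq reached 53.8 CPM in hyperoxia kidney replicate 4, where the rest of that group lay between 16.2 and 20.7 CPM. Fabp4 was also highest in these kidneys within their groups, at 64.5 and 67.8 CPM, without standing apart by the same measure. No aorta stood apart within its group, although Ucp1 differed by 61.7-fold between RA aortas, since each group held low as well as high aortas.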

How the results depend on the processing

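DESeq2 gave 170 genes for exposure in the aorta, 23 in the kidney and 85 for the interaction, and no filter gave 8 in the aorta. With one library left out, the aorta gave 2 to 15 and the interaction 0 to 2. With Adipoq as a covariate (591), Fabp4 in its place gave 159, Ucp1 2 and DESeq2 1688, and leaving out one aorta gave 3 to 466. For the covariate itself (850), Ucp1 gave 288, DESeq2 2126 and leaving out one aorta 230 to 918.

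Leaving out one library moved the log2 fold change of exposure from −0.19 to 0.93 for Adipoq and −0.61 to 0.34 for Fabp4 in the aorta, and from −0.65 to 0.21 and −1.15 to 0.43 in the kidney. The differences of mean CPM ranged from −9.88 to 50.9 and −247 to 96.8 in the aorta and from −10.2 to 3.55 and −17.4 to 6.94 in the kidney, and for Ucp1 in the kidney from −8.26 to −0.41. Between the tissues, the log2 difference ranged from 1.08 to 1.99 for Adipoq and 3.78 to 8.10 for Ucp1, and limma voom gave 1.01 and 5.0. With limma voom, Fabp4 in the aorta turned to 0.11. For the interaction, Adipoq ranged from −0.066 to 1.09 and Fabp4 from −0.62 to 0.95, and Fabp4 turned to 0.74 with limma voom, 0.093 with library totals only and 0.040 with no filter. The SD of log2 CPM of Adipoq in the kidney ranged from 0.39 to 0.72. The r of Adipoq with component 1 ranged from 0.488 to 0.867, and was 0.855 with the 500 most variable genes (adjusted exact permutation p = 0.0367). The share of variance along Adipoq ranged from 21.2% to 30.3%. The cause was not tested for these changes.

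Within a tissue, no number occurs in both exposure groups. Between tissues, 3 hyperoxia aortas carry the numbers of 3 hyperoxia kidneys. With the library number as a replicate block in limma voom, Fabp4 stood at 0.77 for the interaction, near the 0.74 of limma voom without the block. The fit with the block called 0 genes, with 1197 at an unadjusted p under 0.05. The deviations of same-numbered libraries from their group means correlated at 0.0447, −0.0074 and 0.0624 over 13996 genes. Correlations between different tissues cannot show whether the samples are paired. Whether the numbers mark the same animals cannot be told from the sources used here, and the main interaction fit treated all 16 libraries as independent. Of these 3 aortas, 1 correlated best with the kidney of its own number. Over all alternatives, 331 values kept their direction and side of the threshold or stayed near the reported value, 28 moved, 35 turned, 18 fell short of the threshold and 2 newly passed it. Alternatives on gene lists and markers were void.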
